A study of Mus musculus with 2 samples.

Results

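The 8 genes of steroid hormone signalling studied in epithelial cells of the mouse oviduct were the nuclear receptors Esr1, Pgr and Nr3c1, the membrane protein Pgrmc1, and the response genes Greb1, Areg, Cited2 and Fkbp5. The genes were chosen by name, without a threshold on their values, and all 8 of 8 were present among the 27998 genes of the adult table, the 53573 genes of the P4 table and the 26897 genes common to both. The study asked how the epithelial cells of the oviduct differ among themselves. It holds 2 single-cell libraries from C57BL/6 mice, 1 of the adult oviduct in estrus, with 406 cells, and 1 of the oviduct at P4, with 263 cells and no estrous stage given. The labels write only P4, which stands for postnatal day 4 in this study and not for progesterone. No other allele, treatment or agent is named for either group, and the labels give neither the number of animals nor the region of the oviduct. In both, the tissue was digested with enzymes and sorted to discard dead cells and to enrich epithelium, with Epcam and CD45 antibodies in use. In both, 3′ ends of transcripts were counted with unique molecular identifiers (UMIs) on the Chromium V2 chemistry. With 1 library an age, no difference below has a replicate check and no test was possible. Age cannot be told apart from library, sort, depth, gene annotation or estrous stage, and in summed counts fewer cells with a transcript and less transcript per cell cannot be told apart.

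Steroid receptors are ligand-activated transcription factors. In the absence of hormone they are held by Hsp90 and its co-chaperones, and with hormone they bind response elements in DNA and recruit coregulators. In the female tract estradiol acts mainly through the estrogen receptor alpha, the product of Esr1, and induces further genes, among them the progesterone receptor Pgr in many tissues. The oviduct epithelium consists of secretory cells, which make the fluid in which gametes and embryos travel, and multiciliated cells, which move it. Both are exposed to the changing hormones of the estrous cycle, and an animal a few days old has not begun to cycle.

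The adult library held 1401641 UMIs with a median of 3232 a cell, and the P4 library 2123202 UMIs with a median of 7585. The authors' cluster numbers divide the adult cells into 5 clusters and the P4 cells into 2, and no barcode was shared between the ages. Adult clusters 0 and 4, with 130 and 31 cells, carried the secretory markers, which summed to 188.4 UMIs per 10000, and are called secretory-like. Adult clusters 1 and 3, with 183 and 37 cells, carried the multiciliated markers, at 160.8 UMIs per 10000, and are called multiciliated-like. Adult cluster 5, with 25 cells, was left unnamed. Its smooth muscle markers summed to 76.6 UMIs per 10000, against 9.70 in the adult library as a whole. All 8 of 8 were detected there, as in adult clusters 0 and 1 and both P4 clusters. Of its cells, 7 held 44 to 189 smooth muscle UMIs each, and the other 18 held 0 to 5. Cluster 5 also carried secretory markers, at 87.4 UMIs per 10000 against 94.3 in the adult library, and epithelial markers, at 40.9. P4 clusters 1 and 0, with 95 and 168 cells, were also left unnamed. All 9 of 9 epithelial markers were detected at both ages, at 47.2 UMIs per 10000 in adult cells and 39.2 in P4 cells. The leukocyte marker Ptprc, which encodes CD45, was at 0 in both, but other immune markers were detected. Of 8 immune markers 4 were found in adult cells, with 60 UMIs in 5.42% of cells. In P4 cells 5 were found, with 75 UMIs in 7.60% of cells. No doublet caller was run. A level below is the summed UMIs of a gene per 10000 UMIs of the cells named, with an exact 95% Poisson interval that covers counting error only. Within an age it uses all UMIs of that library, and between ages the UMIs of the genes common to both tables.

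The clusters were built from expression, so differences between clusters describe the groups and are not tests. A pair of groups is called apart where their levels, each with 0.1 added, differed at least 2-fold and their UMIs together reached 20. Between adult and P4 cells 3 of the 8 genes were apart, Greb1 and Areg higher and Pgr lower in the adult, where 19.3% of 10480 genes with 20 UMIs were apart, 11.2% higher and 8.13% lower. Between adult secretory-like and multiciliated-like cells 3 of the 7 genes with 20 UMIs were apart, Esr1 higher and Areg and Fkbp5 lower in secretory-like cells, where 29.6% of 7215 genes were apart, 9.11% higher and 20.5% lower. The median log2 fold of the members was 0.29 for adult over P4 cells, beside -0.01 for all genes with 20 UMIs, and -0.66 for secretory-like over multiciliated-like cells, beside -0.22. Within P4, cluster 1 over cluster 0, none of the 5 members with 20 UMIs was apart, where 2.83% of 9671 genes were, 1.21% higher and 1.62% lower. Each adult class was also set against the same P4 library, which these comparisons share. Of 5 members 1, Pgr, was apart in secretory-like over P4 cells, where 18.6% of 9279 genes were, 5.64% higher and 13.0% lower. In multiciliated-like over P4 cells 4 of 8 were apart, Greb1, Areg and Fkbp5 higher and Pgr lower, where 29.2% of 9902 genes were, 15.6% higher and 13.6% lower. With a pseudocount of 0.5 in place of 0.1 Areg alone was apart between adult and P4 cells, and likewise after thinning every cell to 1000 UMIs, where Pgr and Greb1 fell short of 20 UMIs.

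**Figure D1:**
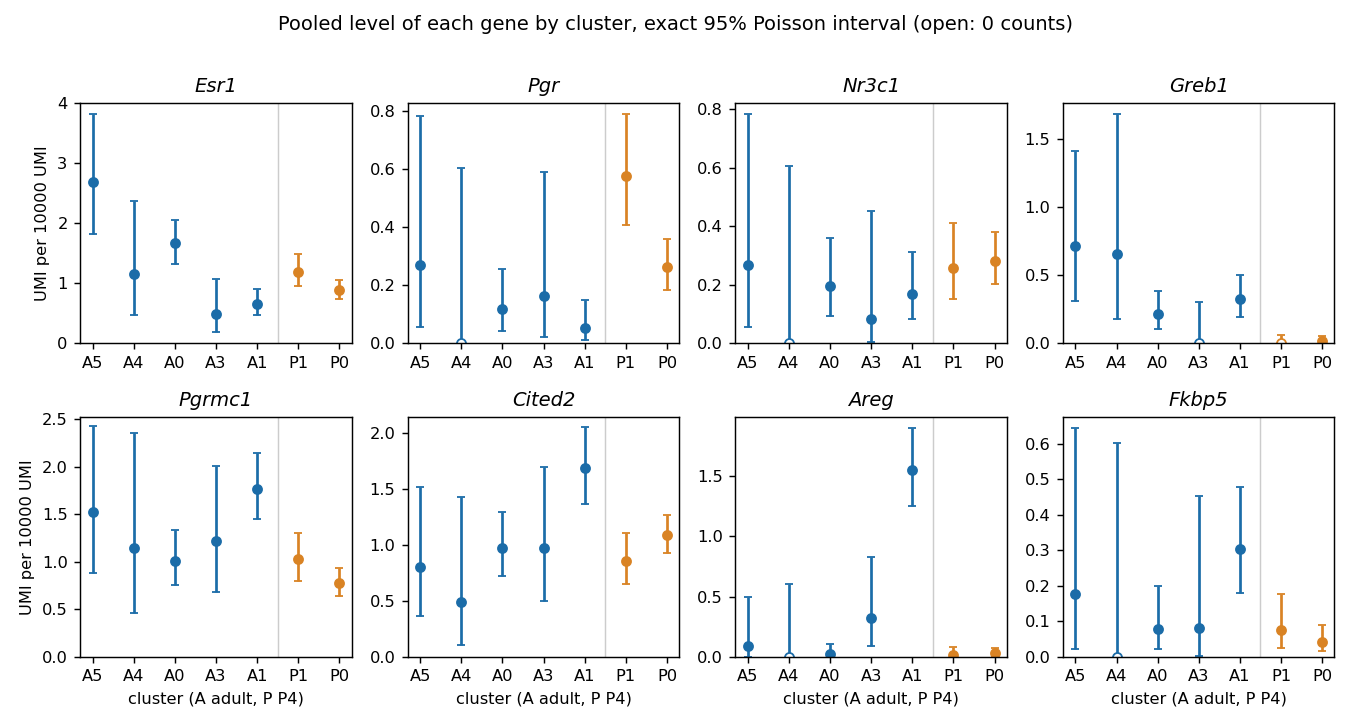
Level of each of the 8 genes (UMIs per 10000 UMIs of the library, y axis) in the 5 adult and 2 P4 clusters (x axis), with exact 95% Poisson intervals as bars; open points are counts of 0. Esr1 is highest in adult clusters 5 and 0, Areg stands at 1.55 in adult cluster 1 and at 0.325 or lower in every other cluster, and Greb1 is at 0.0137 or lower in both P4 clusters.

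Esr1, the estrogen receptor alpha, was detected in every cluster. Its level was 2.68 (95% interval 1.81 to 3.82) in adult cluster 5, 1.15 (0.461 to 2.36) in adult cluster 4, 1.66 (1.32 to 2.05) in adult cluster 0, 0.487 (0.179 to 1.06) in adult cluster 3, 0.658 (39 UMIs) in adult cluster 1, 1.19 (0.944 to 1.49) in P4 cluster 1 and 0.883 (0.737 to 1.05) in P4 cluster 0. The secretory-like clusters 4 and 0 were thus above the multiciliated-like clusters 3 and 1, with overlapping intervals for cluster 4, with the P4 clusters between the larger of each. In the order of the 7 clusters over the common genes, adult cluster 5 stood above adult cluster 0 by a ratio with a counting interval of 1.03 to 2.47, and P4 cluster 0 above adult cluster 1 with 1.06 to 2.24. The intervals of all other neighbouring pairs included 1.

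Summed over cell classes, Esr1 was at 1.60 (1.29 to 1.97) in adult secretory-like cells and 0.629 (0.459 to 0.841) in adult multiciliated-like cells, from 92 and 45 UMIs. This was a ratio of 2.55 with a counting interval of 1.77 to 3.73, and 2.34-fold with 0.1 added to each level. With 0.5 added it was within 2-fold. A UMI of Esr1 was found in 36.6% of secretory-like and 15.9% of multiciliated-like cells, whose median depths of 3221 and 3194.5 UMIs were close. After thinning each cell to 1000 UMIs a UMI of Esr1 remained in 18 of 131 secretory-like and 12 of 170 multiciliated-like cells, 13.7% and 7.06%. For comparison, the ciliary transcription factor Foxj1 had a UMI in 6.21% of secretory-like and 70.0% of multiciliated-like cells. The secretory product Ovgp1 had one in 90.7% of secretory-like and 38.6% of multiciliated-like cells. The 38.6% joined 29.5% of cluster 1 and 83.8% of cluster 3 cells. Whether the UMIs of Foxj1 and Ovgp1 in the other class came from other cells was not tested. The Foxj1 level was 0.174 in secretory-like and 7.56 in multiciliated-like cells, a ratio of 0.0230, and that of Ovgp1 82.5 in secretory-like and 9.33 in multiciliated-like cells, a ratio of 8.83. The 15.9% of multiciliated-like cells with Esr1 lay below their 38.6% with Ovgp1. In secretory-like cells Ovgp1 was at 82.5 and Esr1 at 1.60, so the Ovgp1 share is no like background for Esr1. The share of 15.9% is not read as expression by those cells. The part of free transcript in it was not tested. Immediate early and heat shock genes, which tissue digestion can induce and which are listed as a stress set, were also higher in the secretory-like class, with 159.2 against 105.6 UMIs per 10000, and their part in the Esr1 difference was not tested. Esr1 lies on chromosome 10 at 4611593 to 5005614, plus strand (GRCm38, GENCODE M21).

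The smooth muscle markers of adult cluster 5 came from 7 cells that held 44 to 189 UMIs of them each. Esr1 was at 2.41 (1.32 to 4.05) in those 7 cells and at 2.96 (1.69 to 4.81) in the other 18 cells, which held 0 to 5 UMIs of these markers each. The Esr1 level of cluster 5 was thus as high in the cells without the smooth muscle markers. In cluster 5 against cluster 0 none of the 3 members with 20 UMIs was 2-fold apart, where 15.1% of 4000 genes were, 6.05% of them higher. The ratio for Esr1 in cluster 5 over cluster 0 was 1.62 (1.03 to 2.48). Between adult and P4 cells as a whole Esr1 was at 1.21 (1.04 to 1.41) and 1.13 (0.982 to 1.30), from 167 and 208 UMIs, a ratio of 1.07 (0.870 to 1.32). Set against the same P4 library, adult secretory-like cells were at 1.63 and adult multiciliated-like cells at 0.641, with ratios of 1.44 (1.12 to 1.85) and 0.567 (0.401 to 0.785). The 2 adult classes thus lay on opposite sides of the P4 level, which both comparisons share.

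Pgr, the nuclear progesterone receptor, was the 1 member apart on the lower side in the adult. It was at 0.102 (0.0556 to 0.171) in adult cells and 0.413 (0.326 to 0.517) in P4 cells, from 14 and 76 UMIs. With 0.1 added the P4 level was 2.54-fold higher, a log2 fold of -1.35 for adult over P4, and the ratio of the counts was 0.246 (0.129 to 0.439). Adult Pgr was sparse in every cluster, with 3 UMIs in cluster 5, 0 in cluster 4, 6 in cluster 0, 2 in cluster 3 and 3 in cluster 1. Its adult share of 3.20% of cells is not read as expression by these cells. The 6.21% of secretory-like cells with Foxj1 lay above it. Foxj1 was at 7.56 in multiciliated-like cells, so its share is no like background for Pgr. In the P4 library Pgr was at 0.574 (0.406 to 0.787) in cluster 1 and 0.260 (0.184 to 0.357) in cluster 0, 38 UMIs in each, a ratio of 2.20 (1.37 to 3.55) and 1.87-fold with 0.1 added, under the 2-fold line. After thinning to 1000 UMIs, 0.621% (0.0753 to 2.23) of adult and 3.04% (1.32 to 5.91) of P4 cells had a UMI of Pgr.

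Markers of stroma moved with the age difference in Pgr. The 8 stromal markers, all detected at both ages, summed to 2.27 UMIs per 10000 in adult cells and 6.12 in P4 cells, and the stromal collagen Col1a1 had a UMI in 10.6% of adult and 73.8% of P4 cells. No member reached that share in P4 cells. Col1a1 also had more UMIs there, 417 against 216 for Cited2, so its share is no like background for the members. The P4 shares of cells are not read as expression by those cells. Within P4 the Pgr level was 0.355 (0.252 to 0.485) in the 132 cells at or above the median stromal level of 5.47 and 0.361 (0.254 to 0.498) in the 131 cells under it, while the stromal markers themselves were at 8.50 and 3.57. The intervals of both Pgr levels overlapped, and since 95.4% of P4 cells held a UMI of a stromal marker, the part of stromal transcript in the Pgr level was not tested. Only 7 P4 cells carried fewer than 2 of the non-epithelial markers, and Pgr had 0 of their 13026 UMIs. The log2 fold over such cells of both ages was 1.19, from which no direction can be read at this depth.

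The start of Pgr lies on chromosome 9 at 8899833, plus strand, and the gene ends at 8968611. Promoter windows from RefSeq (GRCm38.p6) were matched for 7 of the 8 members, and the 250 bases before the start are printed for the 3 genes that were apart between the ages. In the Pgr window, chr9:8899583-8899832 on the plus strand, the capitals mark the TATA-box letters TATAAA, read on the other strand 212 bases before the start.
Pgr: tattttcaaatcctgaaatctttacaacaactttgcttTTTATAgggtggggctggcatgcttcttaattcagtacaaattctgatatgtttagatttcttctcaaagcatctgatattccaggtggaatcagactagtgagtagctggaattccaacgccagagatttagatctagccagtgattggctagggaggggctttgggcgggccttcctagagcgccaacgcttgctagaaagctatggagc
In the Greb1 window, chr12:16800887-16801136 on the minus strand, the capitals mark GGTCA, one arm of an estrogen response element, on the other strand 88 bases before the start.
Greb1: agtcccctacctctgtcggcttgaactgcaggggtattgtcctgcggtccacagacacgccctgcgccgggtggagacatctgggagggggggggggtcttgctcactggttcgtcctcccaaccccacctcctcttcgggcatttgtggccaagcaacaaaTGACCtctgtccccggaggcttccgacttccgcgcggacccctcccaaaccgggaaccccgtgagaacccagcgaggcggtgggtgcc
A second Greb1 window, chr12:16757240-16757489 on the minus strand, holds GGTCA at 2 places and is not printed.
In the Areg window, chr5:91139349-91139598 on the plus strand, the capitals mark a cyclic AMP response element, TGACGTCA, 61 bases before the start and TATAAA 31 bases before it.
Areg: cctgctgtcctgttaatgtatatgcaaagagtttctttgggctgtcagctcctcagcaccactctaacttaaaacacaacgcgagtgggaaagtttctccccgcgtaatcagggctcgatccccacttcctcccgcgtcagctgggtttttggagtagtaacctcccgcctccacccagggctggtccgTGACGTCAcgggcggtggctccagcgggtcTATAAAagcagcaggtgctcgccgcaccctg
Both strands of all 32851 promoter windows of this length were searched. TGACGTCA was present in 1.55% of them, TATAAA in 12.4% and the single arm GGTCA in 35.2%. The whole estrogen response element GGTCANNNTGACC, which contains the single arm, was present in 0.0639% and the glucocorticoid and progesterone element GNACANNNTGTNC in 0.387%, and neither was in any window of the 7 members. A match of letters is a description of the sequence only.

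Nr3c1, the glucocorticoid receptor, lies on chromosome 18. It was at 0.174 (0.112 to 0.259) in adult cells and 0.315 (0.239 to 0.408) in P4 cells, from 24 and 58 UMIs. The ratio was 0.553 (0.329 to 0.904), and the fold with 0.1 added was 0.661, within 2-fold. In adult secretory-like and multiciliated-like cells it was at 0.174 and 0.154, a ratio of 1.13 (0.432 to 2.94), an interval wide enough to hold a 2-fold difference in either direction. Levels by cluster were 0.268 in adult cluster 5, 0 in cluster 4, 0.195 in cluster 0, 0.0812 in cluster 3 and 0.169 in cluster 1, and 0.257 and 0.281 in P4 clusters 1 and 0, and no neighbouring pair in the order of levels had an interval that left out 1.

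Pgrmc1, a haem-binding membrane protein named for progesterone binding, was at 1.42 in adult and 0.984 in P4 cells, from 196 and 181 UMIs, a ratio of 1.45 (1.18 to 1.78). It was at 1.03 (0.783 to 1.33) in secretory-like and 1.68 (1.39 to 2.01) in multiciliated-like cells, from 59 and 120 UMIs, a ratio of 0.613 (0.441 to 0.844). Both differences were within 2-fold. The direction of the age difference depended on which cells were kept. Over cells with fewer than 2 non-epithelial markers, of which P4 had 7 with 3 Pgrmc1 UMIs of 13026, the log2 fold for adult over P4 was -1.03, against 0.49 with all cells. By cluster it was at 1.52 in adult cluster 5, 1.15 in cluster 4, 1.01 in cluster 0, 1.22 in cluster 3 and 1.77 in cluster 1, and at 1.03 and 0.774 in P4 clusters 1 and 0. All 7 clusters held it, and no neighbouring pair in the order of levels had an interval that left out 1. Pgrmc1 lies on the X chromosome at 36598206 to 36606079, plus strand.

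The estrogen-response gene Greb1, whose product is a coactivator of the estrogen receptor in human breast cancer cells, was found almost wholly in the adult. Adult cells held 42 UMIs, a level of 0.305 (0.220 to 0.412), and P4 cells 2 UMIs, a level of 0.0109 (0.00132 to 0.0393). Both P4 UMIs were in 1 cell of cluster 0. The ratio was 28.1 with a counting interval of 7.30 to 239.3, and the fold with 0.1 added to these low levels was 3.65. Within the adult, Greb1 was at 0.714 (0.308 to 1.41) in cluster 5, 0.655 (0.178 to 1.68) in cluster 4, 0.214 (0.107 to 0.384) in cluster 0, 0 of 123177 UMIs in cluster 3 and 0.321 (0.193 to 0.501) in cluster 1. Both classes of adult cell held it at a like level, 0.261 in secretory-like and 0.266 in multiciliated-like cells, a ratio of 0.984 (0.465 to 2.04).

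Greb1 had a UMI in 35 of 406 adult cells, 8.62%, and in 7.45% of secretory-like and 7.27% of multiciliated-like cells. Foxj1 had one in 6.21% of secretory-like cells. In multiciliated-like cells Foxj1 was at 7.56 and Greb1 at 0.266, so the Foxj1 share is no like background. The part of free transcript in the like shares of Greb1 in both classes was not tested. After thinning Greb1 had a UMI in 2.48% (1.08 to 4.84) of adult cells against 0 of 263 P4 cells. That count of 0 allows a share of up to 1.14%, or up to 1.39% by the exact interval, so the intervals overlapped. In adult cells Greb1 was found in 20.4% of the 108 cells with a UMI of Esr1 and in 4.36% of the cells without one. The cells with Esr1 were deeper, with a median of 4851 against 2563 UMIs, and the part of depth in this overlap was not tested. Greb1 lies on chromosome 12 at 16670615 to 16800886, minus strand, and overlaps the antisense gene Gm48140 and the miRNA gene Gm44305. Whether counting used the strand is not given in the sources used here, so reads of these genes may be mixed with its own.

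Areg, which encodes amphiregulin, a ligand of the epidermal growth factor receptor, was concentrated in the multiciliated-like cells. Multiciliated-like cells held 96 UMIs at 1.34 (1.09 to 1.64), and secretory-like cells 1 UMI at 0.0174 (4.41e-04 to 0.0971). The ratio for secretory-like over multiciliated-like cells was 0.0130, with a counting interval of 3.25e-04 to 0.0741. The ratio for Foxj1 was 0.0230, from a level of 7.56 in multiciliated-like cells against 1.34 for Areg. The Areg ratio rests on 1 UMI in secretory-like cells, and whether that UMI was free transcript was not tested. By cluster, Areg was at 0.0892 in adult cluster 5, 0 in cluster 4, 0.0195 in cluster 0, 0.325 (0.0885 to 0.831) in cluster 3 and 1.55 (1.25 to 1.90) in cluster 1, and at 0.0151 and 0.0274 in P4 clusters 1 and 0. Cluster 3, the smaller multiciliated-like cluster, was 3.89-fold lower than cluster 1, a ratio of 0.209 (0.0558 to 0.554), and Areg was the 1 of 4 members apart in that pair, where 17.1% of 5220 genes were, 6.09% higher and 11.0% lower. The stress set stood at 226.8 UMIs per 10000 in cluster 3 and 80.4 in cluster 1, and its part in the Areg difference was not tested.

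The 92 Areg UMIs of cluster 1 were spread over 53 of its 183 cells, with 1 UMI in 32 cells, 2 in 13 cells and at most 6. The cells with Areg were deeper than those without, with a median of 4027 against 2451 UMIs. Their multiciliated markers stood at a median of 187.7 UMIs per 10000, against 189.6 in the cells without Areg, and Foxj1 had a UMI in 94.3% and 65.4% of them. After thinning, 15.9% (10.7 to 22.3) of multiciliated-like cells had a UMI of Areg, and none of the 131 secretory-like cells, where a count of 0 sets an upper limit of 2.29%.

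In the comparison of ages Areg was at 0.712 (0.578 to 0.868) in adult cells and 0.0272 (0.00883 to 0.0634) in P4 cells, from 98 and 5 UMIs, a ratio of 26.2 (10.8 to 82.5) and 6.38-fold with 0.1 added. The 5 P4 UMIs came from 3 cells. Adult multiciliated-like cells alone were at 1.37, a ratio to P4 of 50.3 (20.8 to 158.4), while adult secretory-like cells were at 0.0177, near the P4 level. The multiciliated markers themselves stood at 84.4 UMIs per 10000 in adult and 5.81 in P4 cells, so the mix of cells differed with age, and its part in the Areg difference was not tested. Areg lies on chromosome 5 at 91139599 to 91148432, plus strand.

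**Figure D2:**
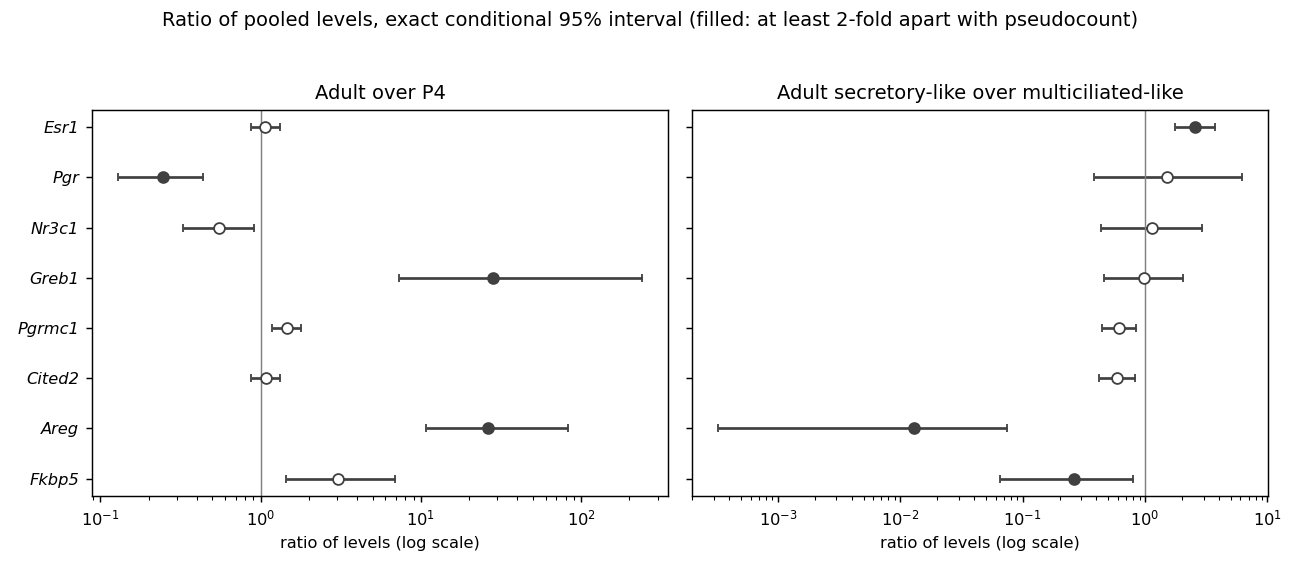
Ratio of summed levels with exact 95% intervals on a log axis for each member, adult over P4 cells in 1 panel and adult secretory-like over multiciliated-like cells in the other; filled points are at least 2-fold apart with 0.1 added. Areg and Greb1 lie far to the right in the adult over P4 panel, at 26.2 and 28.1, and Areg far to the left, at 0.0130, in the secretory-like over multiciliated-like panel.

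Cited2, a coregulator that binds the acetyltransferases CBP and p300, was at 1.26 in adult and 1.17 in P4 cells, from 174 and 216 UMIs, a ratio of 1.08 (0.876 to 1.32). It was at 0.923 (0.692 to 1.21) in secretory-like and 1.57 (1.29 to 1.88) in multiciliated-like cells, a ratio of 0.590 (0.417 to 0.825). By cluster it was at 0.803 in adult cluster 5, 0.491 in cluster 4, 0.975 in cluster 0, 0.974 in cluster 3 and 1.69 in cluster 1, and at 0.860 and 1.09 in P4 clusters 1 and 0. The higher level of cluster 1 rested on 2 cells. Of the 100 Cited2 UMIs in adult cluster 1, 45 lay in 1 cell and 13 in another, together 58.0%, and no other cell of the cluster had more than 4. Without both cells Cited2 was at 0.923 in secretory-like and 0.785 in multiciliated-like cells, a ratio of 1.18 (0.790 to 1.75), and the log2 fold for adult over P4 cells was -0.41, against 0.10 with them.

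Fkbp5, a co-chaperone of Hsp90 and a standard target of glucocorticoids, rested on the same 2 cells. It was at 0.0697 (0.0190 to 0.178) in secretory-like and 0.266 (0.160 to 0.415) in multiciliated-like cells, from 4 and 19 UMIs, a ratio of 0.262 (0.0649 to 0.790). By cluster it was at 0.178 in adult cluster 5, 0 in cluster 4, 0.0780 in cluster 0, 0.0812 in cluster 3 and 0.304 in cluster 1, and at 0.0755 and 0.0411 in P4 clusters 1 and 0. The 2 cells held 6 and 5 of the 18 UMIs of cluster 1, and no other cell had more than 2. Without them Fkbp5 was at 0.0697 and 0.116, from 4 and 8 UMIs, too few for a call, and 2 of 6 members, Esr1 and Areg, were apart between the classes. Likewise 2 of 6, Pgr and Areg, were then apart between multiciliated-like and P4 cells. Between the ages Fkbp5 was at 0.182 in adult and 0.0598 in P4 cells, from 25 and 11 UMIs, a ratio of 3.04 (1.44 to 6.84) and 1.76-fold with 0.1 added. Without the 2 cells the log2 fold for adult over P4 was 0.35, against 0.82 with them. It had a UMI in 3.69% of adult and 4.18% of P4 cells, and the order of these shares goes against that of the levels, so no order is read from them. Fkbp5 lies on chromosome 17 at 28399094 to 28517527, minus strand, and overlaps 4 other annotated genes, some of them antisense. Cited2 lies on chromosome 10 at 17723218 to 17725674, plus strand.

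The first of the 2 cells held 12124 UMIs, and the second 15527, ranks 6 and 2 among the adult cells. The first had 47.0 multiciliated marker UMIs per 10000, close to the lowest value of 46.4 among the other 181 cells of cluster 1, whose median was 189.7. The second had 1.93, with 98 smooth muscle and 67 secretory marker UMIs. The second cell thus carried few of the markers that define the cluster and many of 2 other classes. In the other 181 cells Cited2 was at 0.744 (0.536 to 1.01) and Fkbp5 at 0.124 (0.0498 to 0.255).

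**Figure D3:**
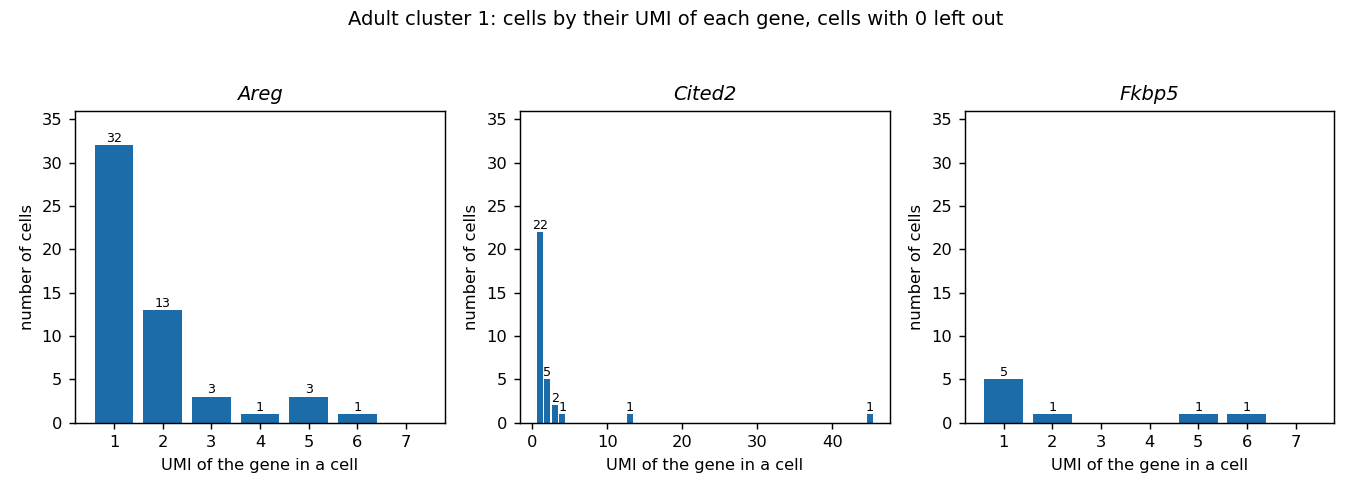
Number of adult cluster 1 cells (y axis) by the UMIs of Areg, Cited2 and Fkbp5 each cell held (x axis). Areg is spread over 53 cells with at most 6 UMIs each, while Cited2 has 1 cell at 45 and 1 at 13, and Fkbp5 has 1 cell at 6 and 1 at 5.

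Shares of cells with a UMI of Esr1, Pgrmc1 and Cited2 were lower in the adult library, the shallower of the pair. With all UMIs a member was found in 26.6% of adult and 52.9% of P4 cells for Esr1, in 30.8% and 46.8% for Pgrmc1 and in 19.7% and 47.1% for Cited2. After thinning each cell to 1000 UMIs, which left out 84 adult and 0 P4 cells, the shares in adult and P4 cells were 10.9% (7.69 to 14.8) and 7.60% (4.71 to 11.5) for Esr1, 12.7% (9.29 to 16.9) and 10.6% (7.19 to 15.0) for Pgrmc1 and 9.63% (6.64 to 13.4) and 8.75% (5.62 to 12.8) for Cited2. The intervals of the ages overlapped for these 3 genes. The levels of another thinning, over the common genes, gave log2 folds for adult over P4 of -0.33 for Esr1 and -0.29 for Cited2, against the order of the shares, so no order of the ages is read for them. No member at all was detected in 39.2% of adult cells and 11.0% of P4 cells.

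**Figure D4:**
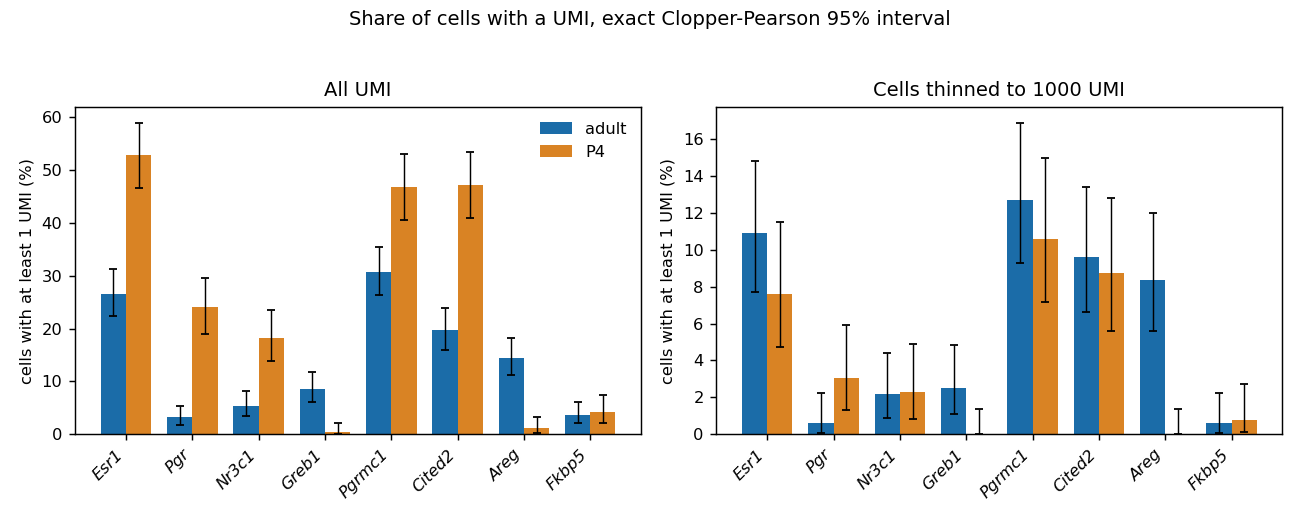
Share of cells with at least 1 UMI of each member (y axis, percent) in adult and P4 cells, with all UMIs and after thinning each cell to 1000 UMIs; bars are exact 95% binomial intervals. With all UMIs Esr1 stands at 26.6% in adult and 52.9% in P4 cells, and after thinning at 10.9% and 7.60%.

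Genes of the same pathways were read from lists chosen by function. Some lists also hold members, so their counts are not independent of those of the members. Greb1, Pgr and Areg are among the estrogen-responsive genes. Areg, Cited2 and Fkbp5 are among the progesterone-responsive genes, and Fkbp5 is among the receptor chaperones and glucocorticoid-responsive genes. The second estrogen receptor, Esr2, had 1 UMI in each library.

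Of the 16 estrogen-responsive genes with 20 UMIs, 7 were higher and 3 lower in adult than in P4 cells, where 11.2% of all genes were higher and 8.13% lower. The median log2 fold of the 16 was 0.47 beside -0.01 for all genes. The higher ones included Ltf, the iron-binding defence protein lactotransferrin, at 4.21 in adult and 0.190 in P4 cells, the ligand Wnt4 at 1.30 and 0.294, and the protease Ctsd at 2.63 and 0.826. The replication gene Mcm3, at 0.00726 in adult and 0.386 in P4 cells, was among the lower ones, and markers of dividing cells as a whole stood at 0.635 and 5.33 UMIs per 10000, whose part was not tested. Between secretory-like and multiciliated-like cells 7 of 13 were higher and 3 lower, where 9.11% of all genes were higher and 20.5% lower. The median of the 13 was 1.06 beside -0.22. Ltf was at 7.21 in secretory-like and 0.489 in multiciliated-like cells, Ccnd1, a cyclin of the G1 phase, at 2.94 and 0.531, and the corepressor Nrip1 at 1.20 and 0.489. Wnt4 was on the other side, at 0.418 and 1.87, with Areg and Myb. The list was therefore divided between the classes, and Esr1 and 7 of the 13 listed genes were higher in secretory-like cells while Areg and Wnt4 were higher in multiciliated-like cells.

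Of 10 receptor chaperones 6 were lower in secretory-like than in multiciliated-like cells and none was higher, where 20.5% of all genes were lower and 9.11% higher. Fkbp5 was among the 6, and its call was lost without the 2 cells described above. The median log2 fold of the 10 was -1.15 beside -0.22 for all genes. The Hsp90 gene Hsp90aa1 had 115 UMIs in secretory-like and 2070 in multiciliated-like cells, a ratio of 0.0693 (0.0569 to 0.0836), its partner Stip1 at 0.331 and 1.76, and the p23 co-chaperone Ptges3 at 1.46 and 6.41. Fkbp4, a further co-chaperone of the list, was at 4.34 and 3.94, within 2-fold. Between adult and P4 cells 2 of the 10 were higher and none lower, where 11.2% of all genes were higher and 8.13% lower.

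Of 14 glucocorticoid-responsive genes, 4 were higher and none lower in adult than P4 cells, where 11.2% of all genes were higher and 8.13% lower. The median of the 14 was 0.60 beside -0.01. The metallothioneins led the 4, with Mt1 at 47.6 in adult and 6.46 in P4 cells and Mt2 at 9.78 and 2.60. Between the classes 3 of 14 were higher and 4, Fkbp5 among them, lower in secretory-like cells. There 9.11% of all genes were higher and 20.5% lower. Mt1 was at 5.80 in secretory-like and 83.7 in multiciliated-like cells. Against the P4 library, 2 of 12 listed genes were higher and 1 lower in secretory-like cells, where 5.64% of all genes were higher and 13.0% lower. In multiciliated-like cells 5 of 14 were higher and 1 lower than in P4 cells, where 15.6% of all genes were higher and 13.6% lower. The mix of cells differed with age, and its part in the age difference of this list was not tested. In secretory-like cluster 4 over cluster 0, where none of the 3 members with 20 UMIs was apart and 26.5% of 3624 genes were, 7.89% higher and 18.7% lower, 10 of 11 glucocorticoid-responsive genes and 16 of 17 stress genes were lower in cluster 4, whose median depth was 1185 UMIs against 4107.5. In cluster 3 over cluster 1, 6 of 11 glucocorticoid-responsive genes were higher and 2 lower, beside 13 of 18 stress genes higher. In that pair 6.09% of all genes were higher and 11.0% lower. Cluster 4 held 0 UMIs of Pgr, Nr3c1, Areg and Fkbp5 among 61113, whose upper interval of 0.604 per 10000 lies above the level of Pgr, Nr3c1 and Fkbp5 in every other adult cluster. These lists share genes such as Dusp1 and Zfp36, so the count of one is not independent of the other.

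Of 12 progesterone-responsive genes, Areg was higher and 1 lower in adult than P4 cells, the cell cycle inhibitor Cdkn1c, at 0.145 in adult and 1.29 in P4 cells. Among 16 receptor coregulators 1 was higher and 3 lower in the adult, and among 7 membrane progesterone receptors and relatives of Pgrmc1, 1 was higher and 1 lower. These counts stand beside the 11.2% of all genes higher and 8.13% lower, and the median log2 folds were -0.21 for the coregulators and 0.43 for the membrane receptors, beside -0.01.

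The genes whose levels over the 7 clusters were most like those of a member were taken as the 3 with the highest Pearson r among 4314 genes, as a description over clusters that share 2 libraries. For Esr1 these were Wdr33 at 0.960, Igfbp4 at 0.959 and Cpe at 0.955. Pgr was followed by Ext2 at 0.978, Plagl1 at 0.968 and Eif3a at 0.960, and Areg by D1Ertd622e at 0.989, Cyp2s1 at 0.988 and Spef2 at 0.984. For Areg 159 of the 4314 genes reached 0.9, and for Nr3c1 138, against 16 for Esr1 and 4 for Pgrmc1. The Greb1 pattern was most like Cox4i1 at 0.959, that of Cited2 most like Ptpra at 0.993, that of Fkbp5 most like Twf1 at 0.977, that of Nr3c1 most like Ybx3 at 0.995 and that of Pgrmc1 most like Fam129a at 0.907. With 7 points, 1 cluster can set such a value. The cluster 1 levels used here include the 2 cells described above, which held 58.0% of its Cited2 and 61.1% of its Fkbp5 UMIs. Which genes would be most like these 2 members without those cells was not tested.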

How the data were processed

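The authors deposited, for each library, a table of UMI counts per gene and cell and a table of cluster numbers. Reads were processed with Cell Ranger, whose version is not given in the sources used here, and Seurat 2.3.4 on mm10, per the submitters' processing notes. The adult table listed 807 columns under 2 prefixes; 401 barcodes occurred under both and were counted 1 time, from the first prefix, which left 406 cells, and 2 of them had another cluster number under the second. Genes outside the common 26897 held 1.79% of adult and 13.4% of P4 UMIs. A merged table of both ages was not used here. No cell filter was added. Counts were summed per cluster, class or library with Python 3.11.15, pandas 2.3.3 and scipy 1.17.1. Fold calls used a pseudocount of 0.1 per 10000, a fold of 2 and a pooled count of 20. A check on simulated data used larger folds and genes with more UMIs. It does not cover calls near a fold of 2 or near 20 UMIs. Counting intervals are exact (95% Poisson, binomial and conditional ratio) and cover counting error only; a count of 0 was read with a floor of 3 counts. Thinning drew 1000 UMIs a cell. Secretory-like and multiciliated-like names rest on marker lists. Beyond the 8 members, the text names pathway genes at least 2-fold apart with a UMI in 10% of cells of a side, at most 6 a list and comparison, unless stated. The members and lists were chosen with earlier results of these data known. Alternatives were another pseudocount, count minimum, scaling, prefix and cell selection. No replicate exists for either age, so no p-value was computed. The list of steroid receptors beyond the members is reported in part here.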

Additional observations from a re-analysis of the deposited data

How the results depend on the processing

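The count of members at least 2-fold apart was recomputed 93 times over 8 comparisons. Of these counts 66 stayed within 1.5 times the reported one and 27 did not. Of 744 member folds, 633 were labelled as the same, 107 as moved and 4 that were apart changed sign. These labels do not follow the ratio intervals printed above. Counting members that were not apart, 66 folds changed sign. The cause was not tested. The reported counts were 3 for adult over P4 cells, 3 for secretory-like over multiciliated-like cells, 0 for cluster 4 over 0, 1 for cluster 3 over 1, 0 for cluster 5 over 0, 0 for P4 cluster 1 over 0, 1 for secretory-like over P4 cells and 4 for multiciliated-like over P4 cells. A pseudocount of 0.5 gave 1 (Areg) for adult over P4, 1 (Areg) for secretory-like over multiciliated-like, 0 for secretory-like over P4 and 1 (Areg) for multiciliated-like over P4 cells. Thinning to 1000 UMIs gave 1 (Areg) for adult over P4, 1 for cluster 4 over 0, 2 for cluster 3 over 1, 0 for secretory-like over P4 and 2 for multiciliated-like over P4 cells. The mean over cells gave 2 for cluster 4 over 0, 1 for cluster 5 over 0 and 1 (Pgr) for P4 cluster 1 over 0. No minimum count gave 3, 3, 1 and 2 for cluster 4 over 0, cluster 3 over 1, cluster 5 over 0 and secretory-like over P4 cells, and a minimum of 50 gave 2 for multiciliated-like over P4 cells. The second prefix gave 3 for cluster 3 over 1 and 1 for cluster 5 over 0. Without the 5% of cells with the most UMIs, multiciliated-like over P4 cells gave 2, and totals without ribosomal protein, mitochondrial and stress genes gave 1 for cluster 4 over 0. Without cells with 2 or more non-epithelial markers, which leaves 258 adult and 7 P4 cells, cluster 3 over 1 gave 2, secretory-like over P4 2 and multiciliated-like over P4 1, and the log2 fold turned to 1.19 (Pgr, adult over P4), 0.69 (Fkbp5, secretory-like over multiciliated-like), 1.32 (Pgr, secretory-like over P4) and 0.95 (Pgr, multiciliated-like over P4), these 4 on counts too few for a call. There Pgrmc1, within 2-fold with all cells, turned to -1.03 for adult over P4 and -1.36 for secretory-like over P4 cells, past 2-fold, the only 2 such turns to a call. Among alternatives chosen after seeing the data, leaving out each member's highest cell gave 1 for cluster 4 over 0 and 2 for multiciliated-like over P4 cells, and leaving out the 2 cells rich in Cited2 gave 2 (Pgr, Areg) for multiciliated-like over P4 cells. No paired analysis was possible because each age has 1 library. At these depths a level of 1 UMI in the smallest group, cluster 4, is 0.164 per 10000, so absence there cannot be told from a low level.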

Other observations

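Genes of steroid synthesis and breakdown, a list outside the 8 members, were 4 higher and none lower of 11 with 20 UMIs in adult over P4 cells, where 11.2% of 10480 genes were higher and 8.13% lower. The median log2 fold of the 11 was 0.22, beside -0.01 for all genes. The 4 were named after their values were seen, since few cells carried them. Akr1c18, which inactivates progesterone, had 47 UMIs in 16 adult cells and 0 in P4 cells, at least 20.9-fold higher in the adult against a floor of 3 counts, and 32 of the 47 lay in the adult cell that also held 45 UMIs of Cited2. Hsd11b1, which regenerates active glucocorticoid, had 26 UMIs in 9 adult cells, 15 of them in 1 cell, and 0 in P4 cells. Cyp11a1, the first enzyme of steroid synthesis from cholesterol, had 23 UMIs in 16 adult cells, at most 6 in a cell, and Hsd3b1 had 20 UMIs in 9 cells, at most 9 in a cell, with 0 of either in P4 cells. Hsd17b10 was at 1.59 in secretory-like and 0.629 in multiciliated-like cells, a ratio of 2.52 (1.75 to 3.69).

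Among the epidermal growth factor ligands and receptors, Hbegf ran against Areg. It was at 0.588 in adult and 1.64 in P4 cells, and at 2.35 in cluster 3 and 0.152 in cluster 1 of the multiciliated-like class, a ratio of 15.5 (7.14 to 37.2), where Areg was at 0.325 and 1.55. The stress set was also higher in cluster 3, and its part was not tested. Among the relatives of Cited2, Cited4 was at 1.42 in adult and 0.555 in P4 cells, and at 2.92 in cluster 3 and 1.03 in cluster 1. Hif1a, whose binding of p300 is limited by the Cited2 protein, was at 0.819 in secretory-like and 0.266 in multiciliated-like cells, a ratio of 3.08 (1.78 to 5.56).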
